A study of Mus musculus with 16 samples.

Results

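The 27 genes described here encode the enzymes that build cholesterol from acetyl-CoA and the proteins that sense and move sterols. They were taken by name from a list chosen with earlier results of these data known, and they are 27 of the 24411 genes counted in each library. All 27 were among the 12901 genes that passed the filter on low counts and were tested. The study sequenced polyadenylated RNA from mouse liver in 16 libraries, 4 in each of 4 groups. PF mice were pair-fed controls given vehicle, and EtOH mice received vehicle on an ethanol diet under the NIAAA model, in which chronic ethanol feeding is followed by an ethanol binge. PF+MBV and EtOH+MBV mice had these same diets and were treated with MBVs, matrix-bound nanovesicles, which are small vesicles embedded in the extracellular matrix of tissues. Strain, sex, age, MBV source, dose and route are not given in the labels used here. Whether the 4 libraries of a group came from 4 separate mice is not given either, so the p-values below reflect a spread between libraries that may be technical.

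Cholesterol is made by a chain of enzymes that first joins acetyl units into mevalonate, then builds isoprene units, squalene and lanosterol, and finally trims lanosterol to cholesterol. The transcription factor SREBP2, the product of Srebf2, switches these genes on when the endoplasmic reticulum is low in sterol. Scap escorts SREBP2 to the Golgi for cleavage, and the Insig proteins hold Scap back when sterol is plentiful. Insig1 is itself an SREBP target, whereas Insig2 in liver is known for a promoter that does not follow SREBP. The liver makes cholesterol for membranes, lipoproteins and bile acids.

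Library totals ranged from 15271344 to 20493181 counts assigned to genes. Levels are given as CPM, counts scaled to the library size multiplied by the library's TMM scaling factor (0.863 to 1.269). Where a group is summarised, the mean ± SD of 4 libraries is given. No 2 libraries of a group agreed within sampling noise. EtOH 1 and EtOH+MBV 1 stood apart from their groups in a principal component analysis of all tested genes. For the sterol genes, PF 2 and EtOH 2 stood apart as well: PF 2 was the highest PF library for 21 of the 27 genes, against 32.3% of all tested genes, and EtOH 2 was the highest EtOH library for 22 of 27, against 21% of all tested genes. In PF 2, Mvd was 3.77 times and Hmgcs1 3.72 times the mean of the other 3 PF libraries, and 12 of the 27 genes were more than 1.5 times that mean. The hepatocyte marker Alb averaged 84625 ± 12019 CPM in PF, 78560.4 ± 13864 in EtOH, 86659 ± 2888 in EtOH+MBV and 68470.3 ± 5775 in PF+MBV, among the highest levels of the marker genes looked at in this liver tissue. Lymphocyte markers summed to at most 2.29 CPM in any library, and the 5 neutrophil markers to 0.367 to 4.66 CPM over PF, 0.873 to 6.98 over EtOH, 0.823 to 6.03 over EtOH+MBV and 0.833 to 1.38 over PF+MBV. The 2 neutrophil markers high enough to be tested, S100a8 and S100a9, had log2 fold changes of 1.47 ± 0.88 and 1.16 ± 0.74 in EtOH against PF and 1.92 ± 0.89 and 1.47 ± 0.77 in EtOH+MBV against PF+MBV, none past the test (edgeR, adjusted p = 0.194, 0.225, 0.104 and 0.148). In EtOH against PF, 4 of 5 stellate cell markers were higher and 1 lower, while 3 of 5 liver endothelial markers were lower and 1 higher, where 20.4% of all tested genes were called higher and 19.5% lower. Of 7 hepatocyte markers 1 was higher and none lower, and of 5 Kupffer cell markers likewise 1 and none. Of 5 tested recruited monocyte or macrophage markers 2 were higher and 1 lower, and of 4 cholangiocyte markers 1 was higher and none lower. In EtOH+MBV against PF+MBV 2 of the 7 hepatocyte markers were higher (19.2% of all tested genes) and none lower (16.7%), and with MBV none was called on either diet. The stellate markers summed to 92.6 to 108 CPM over the PF libraries and 85.5 to 153 over EtOH, and the endothelial markers to 227 to 259.6 and 214 to 251. Kupffer cell markers summed to 197 to 261 CPM over PF and 126 to 408 over EtOH, with EtOH 1 the highest. Their part in the results on the sterol genes was not tested. In whole liver, fewer cells of a type and less RNA per cell cannot be told apart.

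The start of each gene is shown for the 5 genes on which the comparisons below turn and for which RefSeq lists a promoter window on GRCm38.p6. They are 4 genes whose response to MBV differed between the diets, and Insig2. Of the 27 genes, Insig2 was the only gene called higher in EtOH+MBV against PF+MBV, the comparison that called the most of the 27 lower. Each window runs 5′ to 3′ from 250 bases before the transcript start to 50 bases from it. Capitals mark matches, on either strand, to TCACNCCAC, a form of the sterol regulatory element bound by SREBP, and to CCAAT, the box bound by NF-Y. For Insig2, the most upstream of 3 listed starts is shown, and the windows of the other starts held 0 matches to either motif.
Hmgcs1 (chr13:119690101-119690400, plus strand): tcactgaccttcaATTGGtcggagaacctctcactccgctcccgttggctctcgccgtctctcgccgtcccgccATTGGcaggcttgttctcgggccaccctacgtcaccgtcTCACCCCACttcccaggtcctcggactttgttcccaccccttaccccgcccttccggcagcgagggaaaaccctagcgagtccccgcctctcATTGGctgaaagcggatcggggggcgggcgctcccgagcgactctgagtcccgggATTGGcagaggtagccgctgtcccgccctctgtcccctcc
Msmo1 (chr8:64733529-64733828, minus strand): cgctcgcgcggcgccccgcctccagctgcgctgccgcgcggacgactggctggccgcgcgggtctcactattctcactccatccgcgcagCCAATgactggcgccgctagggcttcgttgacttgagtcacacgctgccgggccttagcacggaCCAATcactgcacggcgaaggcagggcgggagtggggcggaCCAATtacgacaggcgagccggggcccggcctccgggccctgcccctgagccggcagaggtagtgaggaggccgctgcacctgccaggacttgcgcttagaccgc
Hsd17b7 (chr1:169969156-169969455, minus strand): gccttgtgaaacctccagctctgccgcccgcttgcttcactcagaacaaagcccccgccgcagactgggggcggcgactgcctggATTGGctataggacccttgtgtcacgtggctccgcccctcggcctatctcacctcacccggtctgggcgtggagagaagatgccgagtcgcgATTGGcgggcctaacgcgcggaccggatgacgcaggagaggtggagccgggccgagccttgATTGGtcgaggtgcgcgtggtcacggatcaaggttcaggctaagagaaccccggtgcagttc
Insig1 (chr5:28071162-28071461, plus strand): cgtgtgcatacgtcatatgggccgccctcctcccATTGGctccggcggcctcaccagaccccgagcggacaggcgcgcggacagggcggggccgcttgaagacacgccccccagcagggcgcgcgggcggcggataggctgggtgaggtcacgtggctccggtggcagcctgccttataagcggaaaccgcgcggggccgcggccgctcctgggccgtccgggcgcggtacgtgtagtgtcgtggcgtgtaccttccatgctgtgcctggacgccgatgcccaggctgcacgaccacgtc
Insig2 (chr1:121332540-121332839, minus strand): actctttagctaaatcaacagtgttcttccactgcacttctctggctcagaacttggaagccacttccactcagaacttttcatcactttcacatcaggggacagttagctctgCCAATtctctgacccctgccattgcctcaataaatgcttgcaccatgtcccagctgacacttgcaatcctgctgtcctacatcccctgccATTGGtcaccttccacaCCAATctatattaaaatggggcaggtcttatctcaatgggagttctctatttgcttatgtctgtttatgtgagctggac

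Promoter windows were found for 23 of the 27 genes. TCACNCCAC was found in 1 of the 23, Hmgcs1, where the match TCACCCCAC began 137 bases before the start. It was found in 1.52% of tested genes with a window and in 1.24% of 32851 RefSeq promoter windows of that length. CCAAT was found in 20 of 23 genes (87%), against 42.7% of tested genes with a window and 37.4% of all windows. A gene was counted if any of its windows held a match. In the windows shown, Hmgcs1 held 4 matches to CCAAT, Msmo1, Hsd17b7 and Insig2 held 3 each, and Insig1 held 1. The GC box GGGCGG was found in 20 of 23 genes (87%) and in 66.8% of tested genes, and the palindromic E-box CACGTG in 5 of 23 (21.7%) and in 11.6% of tested genes. No match of one motif overlapped a match of another. These are matches of letters in a short window and were not measured as binding sites.

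Over all 4 groups, PF+MBV had the highest mean for 20 of the 27 genes and EtOH+MBV the lowest for 14. The CPM of the 27 genes summed to 2689 to 4285 in the PF libraries and 2800.5 to 4596 in EtOH. It summed to 2968 to 3879 in EtOH+MBV and 4768 to 5635 in PF+MBV. Every PF+MBV library therefore lay above every library of the other 3 groups on this sum, while those 3 groups overlapped. Insig2 weighed heavily in the sum on ethanol, at 1374 of 4419 CPM in EtOH 3 and 1349 of 3879 in EtOH+MBV 4. The mean log2 CPM, in which each gene counts equally, was taken relative to the PF mean. It was -0.23 to 0.44 in PF, -0.36 to 0.47 in EtOH, -0.38 to -0.125 in EtOH+MBV and 0.49 to 0.74 in PF+MBV. The spread within groups was wider for these genes than for tested genes at large in all 4 groups. The median coefficient of variation (SD divided by mean) over the 27 genes was 20.9% in PF, 36.5% in EtOH, 20% in EtOH+MBV and 11.5% in PF+MBV. Over all tested genes it was 14.2%, 20.3%, 16.6% and 9.99%.

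**Figure D1:**
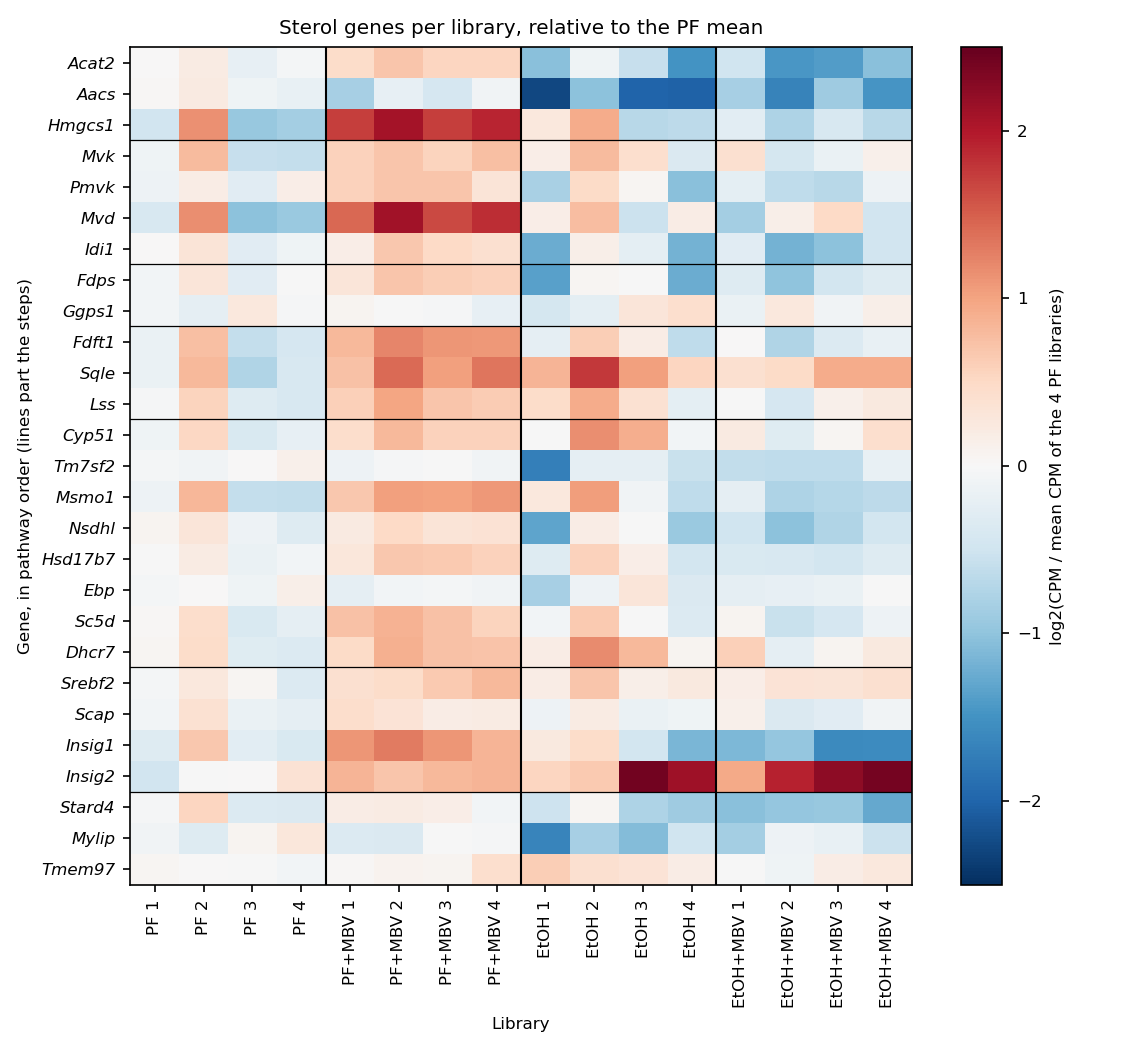
Colour shows log2 of each library's CPM over the mean CPM of the 4 PF libraries, with the 27 genes in pathway order as rows and the 16 libraries as columns. The 4 PF+MBV columns are mostly red and the 4 EtOH+MBV columns mostly blue, and PF 2 and EtOH 2 stand out as red within their groups. The Insig2 row is reddest in EtOH 3, EtOH 4 and the 4 EtOH+MBV columns.

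In pair-fed liver, 3 sterol genes rose with MBV, and most of the others had higher values that did not pass the test. Hmgcs1, which makes HMG-CoA from acetyl units, rose 3.64-fold, Mvd, which makes isopentenyl diphosphate, rose 3.45-fold, and Srebf2 rose 1.51-fold (PF+MBV against PF). These 3 of 27 genes passed the test at an adjusted p under 0.05 and none fell, where 0.752% of all tested genes were called higher and 1.03% lower (edgeR quasi-likelihood test, Benjamini-Hochberg adjustment over all tested genes). At an unadjusted p under 0.05 there were 17 of the 27, all with positive fold changes, against 2181 of the 12901 tested genes in either direction. Of the 27 fold changes 22 were positive, against 6527 of the 12901. The median log2 fold change was 0.58 for the 27 genes and 0.004 for all tested genes. Libraries did not overlap for 12 of the 27 genes, all higher in PF+MBV, against 7.7% of all tested genes higher and 7.26% lower without overlap. DESeq2 called 8 of the 27 higher (2.47% of all tested genes) and limma voom 4 (0.837%), and neither called one lower. The calls depended on single libraries, as did those over all tested genes. Without PF 2, 11 of the 27 genes were called higher (2.4% of all tested genes). Without any 1 of PF 1, PF 3, PF 4 or the 4 PF+MBV libraries none was, against 0.123% to 0.306% of all tested genes. Over these 8 fits the log2 fold changes were 1.65 to 2.61 for Hmgcs1, 1.55 to 2.54 for Mvd and 0.48 to 0.69 for Srebf2. With only the PF and PF+MBV libraries in the fit, 15 were called higher, against 4.32% of all tested genes.

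In ethanol-fed liver, the fold changes with MBV mostly had the other sign, and 1 gene passed the test (EtOH+MBV against EtOH). Insig1, which holds Scap and SREBP2 in the endoplasmic reticulum, fell 2.28-fold. It was the only one of the 27 called lower, where 1.45% of all tested genes were, and none was called higher, where 1.24% were. There were 22 of 27 genes with negative fold changes, against 6332 of the 12901 tested genes. The median was -0.30 on the log2 scale, against 0.006 over all tested genes. An unadjusted p under 0.05 was found for 7 of 27, against 2723 of the 12901 tested genes. Those 7 were Msmo1, Hsd17b7, Insig1, Stard4 and Tmem97, with lower values, and Aacs and Mylip, with higher ones. DESeq2 also called Insig1 alone (4.09% of all tested genes lower), and limma voom called none of the 27 (0.907% lower). Insig1 was not called without EtOH 1, EtOH 2 or any 1 of the EtOH+MBV libraries, fits that called 0.0229% to 1.06% of all tested genes lower. Its log2 fold changes were -1.42 to -0.95 over the 8 fits that left out 1 library. Without EtOH 4, 3 genes (Insig1, Hsd17b7 and Msmo1) were called lower, against 4.96% of all tested genes, and Mylip higher, against 3.97%. Stard4 was the only gene whose EtOH+MBV libraries all lay below the EtOH libraries, against 3.55% of all tested genes, and for none did they all lie above, against 4.05%.

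Whether the change with MBV differed between the diets was tested as an interaction, the log2 change with MBV on the ethanol diet minus that in pair-fed liver. It was negative and passed the test for 5 of the 27 genes and was positive in none, where 2.09% of all tested genes were called negative and 2.02% positive. The 5 genes were Hmgcs1, Sqle, which makes squalene epoxide, Msmo1 and Hsd17b7, both of which act between lanosterol and cholesterol, and Insig1. The interaction was -2.29 ± 0.42 (log2 ± SE) for Insig1 (edgeR, adjusted p = 0.0137) and -2.51 ± 0.59 for Hmgcs1 (adjusted p = 0.0295). It was -1.81 ± 0.46 for Msmo1 (adjusted p = 0.039), -1.57 ± 0.43 for Sqle (adjusted p = 0.0486) and -0.995 ± 0.25 for Hsd17b7 (adjusted p = 0.0368). At an unadjusted p under 0.05 there were 19 of 27, against 3000 of the 12901 tested genes. The median over the 27 genes was -0.78, against 0.005 over all tested genes. DESeq2 called 12 of the 27 negative (4.45% of all tested genes) and limma voom 6 (1.63%). Insig1 was called in each of the 16 fits that left out 1 library, with values of -2.60 to -2.05. The other 4 calls were lost without any 1 of PF 1, PF 3, PF 4, EtOH 2, EtOH+MBV 2, EtOH+MBV 3, PF+MBV 2 or PF+MBV 4, and some were lost without a further library. In the fits that lost all 4, 0.582% to 1.18% of all tested genes were called negative. The values of these 4 genes in the 16 fits were -3.25 to -2.10 for Hmgcs1, -2.23 to -1.42 for Msmo1, -1.99 to -1.27 for Sqle and -1.13 to -0.76 for Hsd17b7. Without PF 2, 14 genes were called negative, against 3.19% of all tested genes, and without EtOH 2 Aacs was called positive, against 1% of all tested genes.

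Between the diets in mice given vehicle, as many sterol genes rose as fell (EtOH against PF). Sqle, Dhcr7, the last enzyme of one route to cholesterol, Insig2 and Tmem97, a sterol-binding membrane protein, rose. Acat2, Aacs, which activates acetoacetate, Tm7sf2, a sterol reductase, and Mylip, the ubiquitin ligase that removes lipoprotein receptors, fell. These 4 higher and 4 lower calls of 27 compare with 20.4% of all tested genes called higher and 19.5% called lower, and the median log2 fold change was 0.05 for the 27 genes and 0.01 for all tested genes. Groups did not overlap for 2 of the 27 with higher values, Insig2 and Tmem97 (15.9% of all tested genes), and for 3 with lower values, Aacs, Tm7sf2 and Mylip (16.3%). Aacs, Insig2, Mylip, Sqle and Tmem97 were called in each of the 8 fits without 1 library and in each of the 7 other settings tried. Acat2, Dhcr7 and Tm7sf2 were lost in 4, 5 and 5 of the fits without 1 library, with log2 fold changes of -0.99 to -0.53, 0.40 to 0.82 and -0.71 to -0.33. Acat2 was lost without EtOH 1, EtOH 4, PF 1 or PF 2, Dhcr7 without EtOH 2, EtOH 3, PF 1, PF 3 or PF 4, and Tm7sf2 without EtOH 4 or any PF library. Without PF 2, 10 genes were called higher, against 18.5% of all tested genes, and without EtOH 2, 8 were called lower, against 17.8%.

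Between the diets in MBV-treated mice, most of the pathway was lower on ethanol (EtOH+MBV against PF+MBV). The calls were 16 of 27 lower and 1, Insig2, higher, where 16.7% of all tested genes were called lower and 19.2% higher. The 16 genes span the whole route, from Acat2, Aacs and Hmgcs1 at its start to Nsdhl, Hsd17b7 and Sc5d near its end, and include Insig1, Scap and the sterol carrier Stard4. The median log2 fold change was -0.81 for the 27 genes and -0.006 for all tested genes. Libraries did not overlap for 18 genes lower on ethanol (19.9% of all tested genes) and for Insig2, higher on ethanol (19.2%). Leaving out 1 library left 13 to 17 genes called lower, against 11.8% to 19.6% of all tested genes. The call of Insig2 was lost without EtOH+MBV 3, EtOH+MBV 4 or PF+MBV 2, at log2 fold changes of 1.01 to 1.40 over the 8 fits. The 4 two-group comparisons share libraries in pairs, so their fold changes are not independent of each other.

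**Figure D2:**
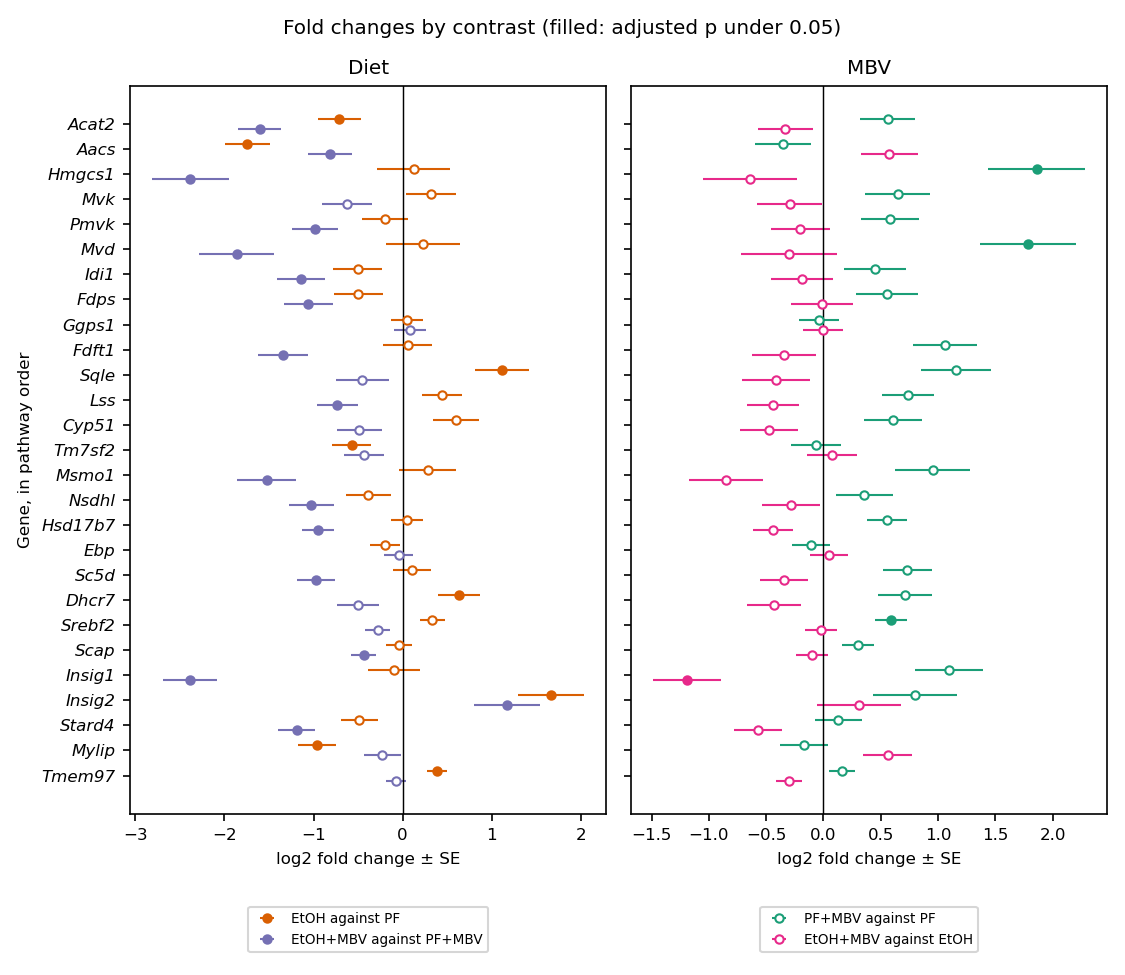
Points show the log2 fold change of each of the 27 genes with its SE, for the 2 diet comparisons on the left and the 2 MBV comparisons on the right, and filled points mark an adjusted p under 0.05. EtOH+MBV against PF+MBV lies below 0 for most genes, with Hmgcs1 at -2.38 and Insig1 at -2.39, while PF+MBV against PF lies above 0 for 22 of 27.

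The first step gathers acetyl units. Acat2 joins 2 acetyl-CoA molecules into acetoacetyl-CoA, Aacs makes the same product from the ketone body acetoacetate, and Hmgcs1 adds a further acetyl unit to give HMG-CoA. Hmgcs1 was at 123, 381, 88.9 and 95.9 CPM in PF 1 to 4 and at 572, 724, 568 and 642 CPM in PF+MBV 1 to 4. Hmgcs1 was at 208, 327, 107 and 109.6 CPM in EtOH 1 to 4 and at 143, 101, 129.9 and 106 CPM in EtOH+MBV 1 to 4. All PF+MBV libraries were thus above all others, and PF 2 and EtOH 2 were the highest of their groups. Hmgcs1 rose by 1.86 ± 0.42 on the log2 scale in PF+MBV against PF (edgeR, adjusted p = 0.0362) and fell by 2.38 ± 0.43 in EtOH+MBV against PF+MBV (adjusted p = 0.000659). Aacs was at 106, 123, 97.5 and 92.3 CPM in PF 1 to 4 and at 59.1, 91.3, 78.0 and 98.8 CPM in PF+MBV 1 to 4. Aacs was at 21.5, 51.2, 26.3 and 25.9 CPM in EtOH 1 to 4 and at 59.2, 33.0, 56.2 and 37.8 CPM in EtOH+MBV 1 to 4. Every library on the ethanol diet with vehicle was below every PF library, and EtOH+MBV overlapped EtOH and was also below every PF library. Aacs fell by 1.74 ± 0.25 in EtOH against PF (edgeR, adjusted p = 7.88e-05), 3.35-fold, and by 0.81 ± 0.25 in EtOH+MBV against PF+MBV (adjusted p = 0.0179). The latter call was lost without EtOH+MBV 2, EtOH+MBV 4 or PF+MBV 4, with log2 fold changes of -0.95 to -0.67 over the fits without 1 library. With MBV its fold changes had signs opposite to those of Hmgcs1, at -0.36 ± 0.24 in pair-fed and 0.58 ± 0.25 in ethanol-fed liver, and neither passed the test. Acat2 was at 80.6, 91.8, 68.5 and 77.1 CPM in PF 1 to 4 and at 109, 129, 115 and 116 CPM in PF+MBV 1 to 4. Acat2 was at 38.5, 73.8, 53.7 and 28.1 CPM in EtOH 1 to 4 and at 56.3, 29.1, 30.1 and 38.5 CPM in EtOH+MBV 1 to 4. The PF+MBV libraries were all above the PF ones, and the EtOH+MBV libraries all below them. Acat2 fell by 0.71 ± 0.24 in EtOH against PF (edgeR, adjusted p = 0.0274) and by 1.61 ± 0.25 in EtOH+MBV against PF+MBV (adjusted p = 0.000182). Acat2 has a near-identical copy in the mouse genome, Acat3, so its counts are uncertain where reads match both.

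Mvk, Pmvk and Mvd then phosphorylate and decarboxylate mevalonate to isopentenyl diphosphate, and Idi1 converts that to its isomer. Mvd was at 9.23, 27.3, 5.98 and 6.46 CPM in PF 1 to 4 and at 33.1, 52.6, 38.3 and 44.0 CPM in PF+MBV 1 to 4. Mvd was at 13.8, 20.9, 8.39 and 13.9 CPM in EtOH 1 to 4 and at 6.80, 13.5, 17.4 and 8.73 CPM in EtOH+MBV 1 to 4. Mvd was low everywhere except in PF+MBV, whose libraries lay above all others, and PF 2 lay well above the rest of PF. Its rise in PF+MBV against PF was 1.79 ± 0.42 (edgeR, adjusted p = 0.0397), and its fall in EtOH+MBV against PF+MBV was 3.63-fold (adjusted p = 0.00307). Pmvk was at 35.1, 43.9, 31.8 and 42.9 CPM in PF 1 to 4 and at 57.6, 61.9, 62.0 and 48.0 CPM in PF+MBV 1 to 4. Pmvk was at 21.8, 53.5, 39.9 and 18.5 CPM in EtOH 1 to 4 and at 32.6, 24.6, 23.6 and 35.3 CPM in EtOH+MBV 1 to 4. All PF+MBV libraries exceeded the PF ones, and all exceeded the EtOH+MBV ones, while EtOH spanned a wider range than any other group. Pmvk fell 1.97-fold in EtOH+MBV against PF+MBV (edgeR, adjusted p = 0.00768). Idi1 was at 91.2, 113, 75.1 and 85.0 CPM in PF 1 to 4 and at 102, 146, 129 and 120.1 CPM in PF+MBV 1 to 4. Idi1 was at 38.5, 101, 77.3 and 40.4 CPM in EtOH 1 to 4 and at 75.1, 40.0, 45.1 and 65.2 CPM in EtOH+MBV 1 to 4. EtOH 2 reached PF levels whereas EtOH 1 and EtOH 4 were less than any PF library. Idi1 fell 2.21-fold in EtOH+MBV against PF+MBV (edgeR, adjusted p = 0.00446). Mvk ranged from 10.4 to 27.3 CPM over PF and EtOH and passed no test, with a log2 fold change of 0.65 ± 0.28 for MBV in pair-fed liver and -0.63 ± 0.28 for ethanol under MBV (edgeR, adjusted p = 0.252 and 0.0935).

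Fdps and Ggps1 join the isoprene units into farnesyl and geranylgeranyl diphosphate, of which only the former feeds sterol synthesis. Fdps was at 309.9, 405, 269 and 324 CPM in PF 1 to 4 and at 403, 528, 499 and 488 CPM in PF+MBV 1 to 4. Fdps was at 127, 337, 324 and 139 CPM in EtOH 1 to 4 and at 261, 162, 236 and 260.1 CPM in EtOH+MBV 1 to 4. EtOH 1 and EtOH 4 were low and EtOH 2 and EtOH 3 at PF levels, and all EtOH+MBV libraries were below all PF+MBV ones. Fdps fell 2.09-fold in EtOH+MBV against PF+MBV (edgeR, adjusted p = 0.0071), the only call of the 4 comparisons. Ggps1, off the sterol route, had group means of 9.09 ± 1.34 CPM in PF, 8.85 ± 0.696 in PF+MBV, 9.43 ± 2.63 in EtOH and 9.39 ± 1.28 in EtOH+MBV. All groups overlapped for Ggps1, and the 95% interval of its log2 interaction was -0.46 to 0.53.

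Fdft1 joins farnesyl units into squalene, Sqle oxidises squalene, and Lss closes the ring to lanosterol. Sqle was at 53.7, 105, 35.9 and 45.4 CPM in PF 1 to 4 and at 100.2, 162, 122 and 151 CPM in PF+MBV 1 to 4. Sqle was at 108, 205, 122 and 86.9 CPM in EtOH 1 to 4 and at 79.8, 83.2, 115 and 114 CPM in EtOH+MBV 1 to 4. PF 2 was the PF library that overlapped EtOH and PF+MBV, and the other PF libraries were below every library of the other groups. Sqle rose by 1.12 ± 0.30 in EtOH against PF (edgeR, adjusted p = 0.00832), 2.17-fold. Its log2 fold change in PF+MBV against PF was 1.15 ± 0.30, which missed the limit (adjusted p = 0.0641). Fdft1 was at 86.0, 164, 64.4 and 72.6 CPM in PF 1 to 4 and at 169.6, 225, 207 and 204 CPM in PF+MBV 1 to 4. Fdft1 was at 82.6, 148, 109.6 and 62.7 CPM in EtOH 1 to 4 and at 97.7, 57.7, 76.7 and 84.9 CPM in EtOH+MBV 1 to 4. PF+MBV lay above all other groups, and PF 2 and EtOH 2 were the highest of theirs. Fdft1 fell 2.54-fold in EtOH+MBV against PF+MBV (edgeR, adjusted p = 0.00183) and had 1.06 ± 0.28 in PF+MBV against PF (adjusted p = 0.0647). Lss was at 48.7, 73.2, 39.9 and 38.0 CPM in PF 1 to 4 and at 75.7, 98.6, 81.0 and 77.3 CPM in PF+MBV 1 to 4. Lss was at 68.7, 95.1, 65.4 and 42.4 CPM in EtOH 1 to 4 and at 49.5, 37.4, 54.6 and 59.0 CPM in EtOH+MBV 1 to 4. EtOH 2 was as high as the PF+MBV libraries, and the EtOH+MBV libraries were all below them. Lss fell 1.66-fold in EtOH+MBV against PF+MBV (edgeR, adjusted p = 0.0201), a call lost without EtOH+MBV 2 or PF+MBV 2, at -0.82 to -0.61 over the fits without 1 library. The counts ignore strand, and Lss and Fdft1 overlap a gene on the other strand: counted by strand, the 2 strands together held 15.3% more reads for Lss and 3.57% more for Fdft1 than the counts used.

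From lanosterol, Cyp51 removes the first methyl group, Tm7sf2 reduces a double bond, Msmo1, Nsdhl and Hsd17b7 remove the remaining methyl groups, and of the last enzymes Ebp shifts a double bond, Sc5d introduces one and Dhcr7 reduces one. Msmo1 was at 122, 235, 87.8 and 86.7 CPM in PF 1 to 4 and at 211, 269, 267 and 282 CPM in PF+MBV 1 to 4. Msmo1 was at 159, 275, 125 and 85.3 CPM in EtOH 1 to 4 and at 114, 78.2, 80.8 and 84.3 CPM in EtOH+MBV 1 to 4. PF+MBV and EtOH+MBV were far apart, while PF 2 and EtOH 2 each reached PF+MBV levels. Msmo1 fell 2.88-fold in EtOH+MBV against PF+MBV (edgeR, adjusted p = 0.00232). Its log2 fold change with MBV was 0.95 ± 0.33 in pair-fed and -0.85 ± 0.33 in ethanol-fed liver, neither past the limit (adjusted p = 0.137 and 0.145). Hsd17b7 was at 93.2, 108, 83.7 and 89.2 CPM in PF 1 to 4 and at 113, 149.9, 148 and 139 CPM in PF+MBV 1 to 4. Hsd17b7 was at 74.6, 140.0, 104 and 67.6 CPM in EtOH 1 to 4 and at 71.8, 70.4, 68.0 and 74.9 CPM in EtOH+MBV 1 to 4. The EtOH+MBV libraries had a coefficient of variation of 4.09% and were below every PF and PF+MBV library. Hsd17b7 fell 1.93-fold in EtOH+MBV against PF+MBV (edgeR, adjusted p = 0.000839). Nsdhl was at 97.7, 115, 85.2 and 74.2 CPM in PF 1 to 4 and at 109, 131, 117 and 120.2 CPM in PF+MBV 1 to 4. Nsdhl was at 37.2, 106, 92.7 and 48.8 CPM in EtOH 1 to 4 and at 65.4, 45.4, 55.2 and 68.0 CPM in EtOH+MBV 1 to 4. The ethanol-fed libraries ranged widely, and EtOH+MBV was below all PF libraries. Nsdhl fell 2.03-fold in EtOH+MBV against PF+MBV (edgeR, adjusted p = 0.00557). Sc5d was at 360.2, 477, 269 and 302 CPM in PF 1 to 4 and at 589, 646, 584 and 521 CPM in PF+MBV 1 to 4. Sc5d was at 334, 554, 349.7 and 277 CPM in EtOH 1 to 4 and at 371, 238, 262 and 323 CPM in EtOH+MBV 1 to 4. All PF+MBV libraries exceeded the PF range, and EtOH 2 reached their level. Sc5d fell 1.96-fold in EtOH+MBV against PF+MBV (edgeR, adjusted p = 0.0025).

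Cyp51 was at 160.0, 245, 132 and 148 CPM in PF 1 to 4 and at 232, 302, 254 and 255 CPM in PF+MBV 1 to 4. Cyp51 was at 171, 383, 319 and 163 CPM in EtOH 1 to 4 and at 201, 139, 177 and 228 CPM in EtOH+MBV 1 to 4. EtOH 2 and EtOH 3 were the highest libraries of all, EtOH 1 and EtOH 4 lay in the PF range, and no comparison passed the test. Cyp51 had a log2 fold change of 0.60 ± 0.26 in EtOH against PF (edgeR, adjusted p = 0.0736) and 0.61 ± 0.26 in PF+MBV against PF (adjusted p = 0.236). Dhcr7 was at 102, 136, 80.6 and 78.2 CPM in PF 1 to 4 and at 137, 184, 164 and 163 CPM in PF+MBV 1 to 4. Dhcr7 was at 113, 224, 175 and 104 CPM in EtOH 1 to 4 and at 150.3, 85.0, 104 and 117 CPM in EtOH+MBV 1 to 4. The PF+MBV libraries were above the PF ones, and EtOH 2 was the highest of all. Dhcr7 rose by 0.64 ± 0.24 in EtOH against PF (edgeR, adjusted p = 0.0418), a call that 5 of 8 fits without 1 library lost. Tm7sf2 was at 160.0, 157, 167 and 180.4 CPM in PF 1 to 4 and at 151, 163, 165 and 156 CPM in PF+MBV 1 to 4. Tm7sf2 was at 51.0, 142, 142 and 113 CPM in EtOH 1 to 4 and at 109, 107, 107 and 147 CPM in EtOH+MBV 1 to 4. EtOH 1 was far below the other EtOH libraries, and all 4 were below PF. Tm7sf2 fell by 0.57 ± 0.22 in EtOH against PF (edgeR, adjusted p = 0.0486). Ebp passed no test, with group means of 226 ± 17.9 CPM in PF, 210.3 ± 12.0 in PF+MBV, 197 ± 64.0 in EtOH and 204 ± 13.7 in EtOH+MBV.

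**Figure D3:**
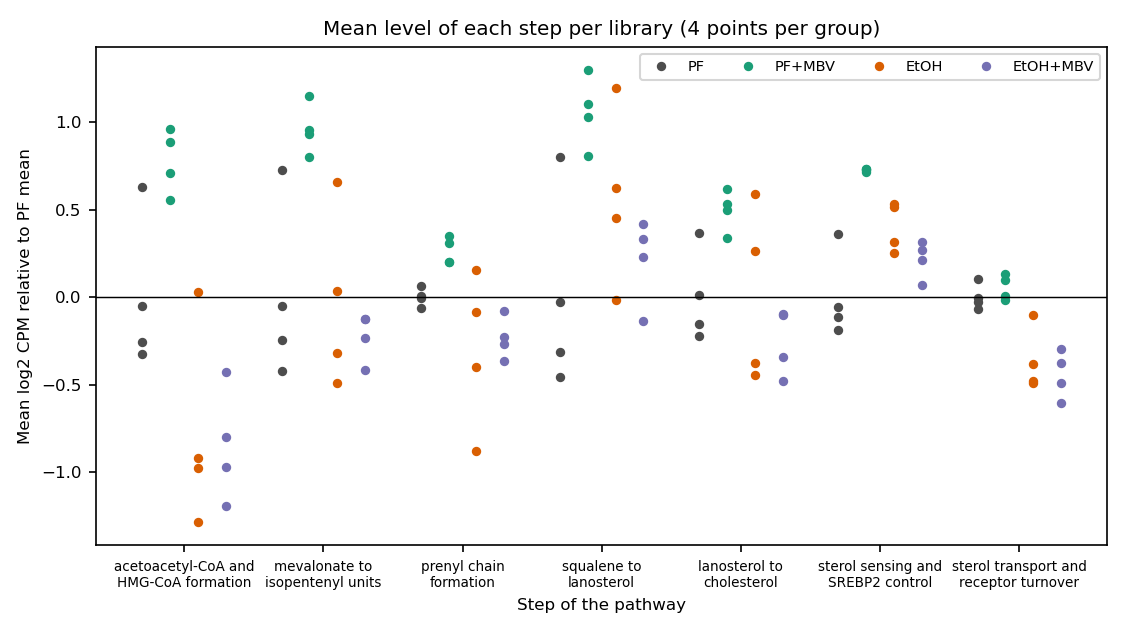
Each point is 1 library, placed by the mean over a step's genes of log2 CPM relative to the PF mean, with the 7 steps along the horizontal axis and 4 libraries per group. In the sterol sensing step the 4 PF+MBV libraries sit at 0.71 to 0.73, above every other library, and in the first step the EtOH+MBV libraries sit at -1.19 to -0.43, below every PF library.

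Insig1 and Insig2 encode the anchors of Scap. Insig1 was at 141, 278, 147 and 135 CPM in PF 1 to 4 and at 374, 433, 377 and 316 CPM in PF+MBV 1 to 4. Insig1 was at 208, 239.7, 128 and 79.4 CPM in EtOH 1 to 4 and at 80.9, 89.2, 58.1 and 58.9 CPM in EtOH+MBV 1 to 4. All PF+MBV libraries were above all others, and all EtOH+MBV libraries were below all PF libraries, with EtOH 4 the lowest of EtOH and within reach of EtOH+MBV. Insig1 fell by 2.39 ± 0.31 in EtOH+MBV against PF+MBV (edgeR, adjusted p = 5.42e-05), 5.23-fold, and by 1.19 ± 0.30 in EtOH+MBV against EtOH (adjusted p = 0.0445). Its log2 fold change in PF+MBV against PF was 1.10 ± 0.29 (adjusted p = 0.0687), and in EtOH against PF it was -0.10 ± 0.29 with a 95% interval of -0.67 to 0.47. Insig2 was at 186, 255, 261 and 331 CPM in PF 1 to 4 and at 466, 418, 452 and 463 CPM in PF+MBV 1 to 4. Insig2 was at 375, 405, 1374 and 1124 CPM in EtOH 1 to 4 and at 501, 982, 1224 and 1349 CPM in EtOH+MBV 1 to 4. EtOH fell into a lower pair, EtOH 1 and EtOH 2, and a higher pair, EtOH 3 and EtOH 4, and EtOH+MBV 1 was the lowest of its group. Insig2 rose by 1.67 ± 0.37 in EtOH against PF (edgeR, adjusted p = 0.00247), 3.17-fold, and by 1.17 ± 0.37 in EtOH+MBV against PF+MBV (adjusted p = 0.0212). Without overlap the PF+MBV libraries were also above PF for Insig2, at 0.80 ± 0.37 (adjusted p = 0.279), so that the lowest group was PF for Insig2 and EtOH+MBV for Insig1.

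Srebf2 was at 55.0, 68.7, 59.2 and 44.8 CPM in PF 1 to 4 and at 75.5, 77.8, 89.6 and 99.9 CPM in PF+MBV 1 to 4. Srebf2 was at 65.1, 91.8, 62.7 and 67.4 CPM in EtOH 1 to 4 and at 64.1, 72.0, 71.2 and 75.5 CPM in EtOH+MBV 1 to 4. PF had the lowest mean of Srebf2 and PF+MBV the highest, with all PF+MBV libraries above PF. Srebf2 rose by 0.59 ± 0.14 in PF+MBV against PF (edgeR, adjusted p = 0.0437), and had 0.33 ± 0.14 in EtOH against PF (adjusted p = 0.0703). Scap was at 140.5, 192, 130.4 and 125 CPM in PF 1 to 4 and at 199.9, 186, 168 and 170.1 CPM in PF+MBV 1 to 4. Scap was at 135, 169, 131 and 137 CPM in EtOH 1 to 4 and at 160.3, 115, 122 and 138 CPM in EtOH+MBV 1 to 4. EtOH+MBV was below PF+MBV without overlap and the other groups overlapped. Scap fell 1.36-fold in EtOH+MBV against PF+MBV (edgeR, adjusted p = 0.0242), a call lost without EtOH+MBV 2, EtOH+MBV 3, PF+MBV 1 or PF+MBV 2, at -0.54 to -0.36 over the fits without 1 library.

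**Figure D4:**
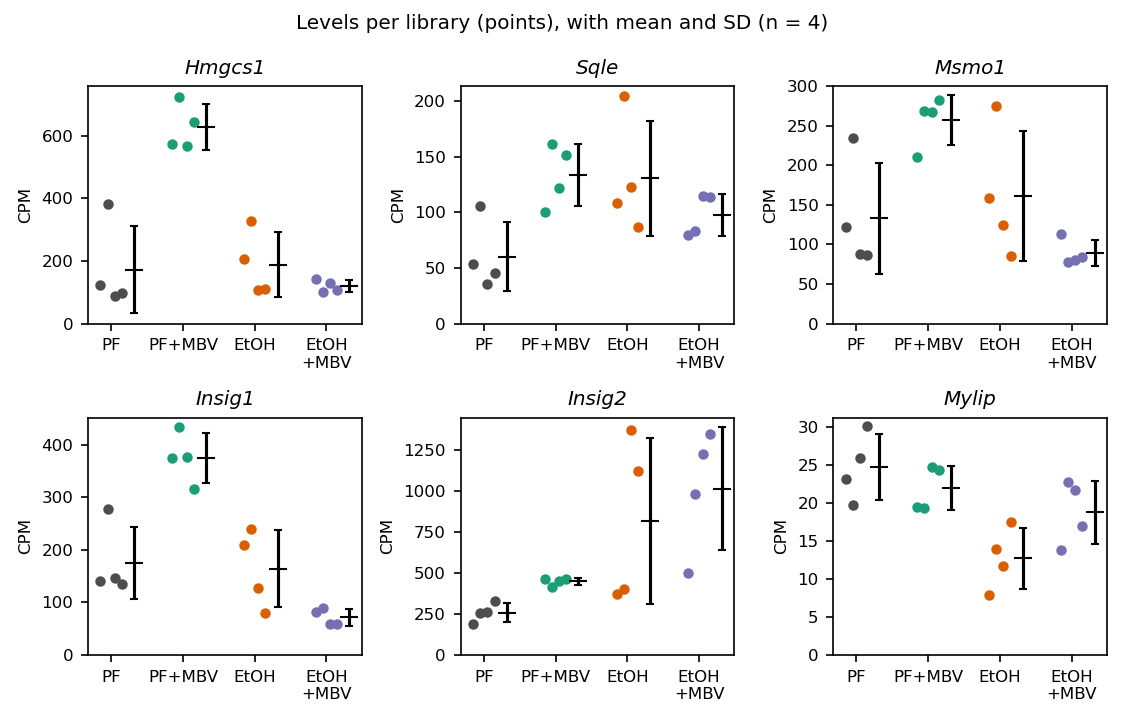
Each panel shows CPM for 1 gene, with points for the 4 libraries of each group and a bar for the mean and SD. Hmgcs1, Msmo1 and Insig1 have their highest mean in PF+MBV and their lowest in EtOH+MBV, whereas Insig2 has its highest means in the ethanol groups and Mylip its lowest in EtOH, where its 4 libraries sit between 7.89 and 17.5 CPM.

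The last 3 genes act on sterol transport and on the receptors and carriers of sterol. Stard4 carries sterol between membranes. Stard4 was at 81.3, 122, 66.0 and 64.6 CPM in PF 1 to 4 and at 95.5, 96.2, 93.7 and 79.6 CPM in PF+MBV 1 to 4. Stard4 was at 58.6, 86.3, 48.7 and 44.8 CPM in EtOH 1 to 4 and at 40.3, 42.7, 43.2 and 34.3 CPM in EtOH+MBV 1 to 4. The EtOH+MBV libraries were below every other library. Stard4 fell 2.27-fold in EtOH+MBV against PF+MBV (edgeR, adjusted p = 0.000512), and had -0.57 ± 0.21 in EtOH+MBV against EtOH (adjusted p = 0.128). Mylip was at 23.2, 19.8, 26.0 and 30.2 CPM in PF 1 to 4 and at 19.5, 19.4, 24.7 and 24.3 CPM in PF+MBV 1 to 4. Mylip was at 7.89, 14.0, 11.7 and 17.5 CPM in EtOH 1 to 4 and at 13.8, 22.8, 21.7 and 17.0 CPM in EtOH+MBV 1 to 4. Mylip, a target of the oxysterol receptors LXR, was lowest in EtOH, below every PF library, and EtOH+MBV overlapped both. Mylip fell by 0.96 ± 0.21 in EtOH against PF (edgeR, adjusted p = 0.00216), 1.94-fold, and had 0.56 ± 0.21 in EtOH+MBV against EtOH (adjusted p = 0.142). Tmem97 was at 89.6, 87.3, 86.1 and 82.0 CPM in PF 1 to 4 and at 88.1, 92.1, 90.1 and 116 CPM in PF+MBV 1 to 4. Tmem97 was at 132, 113, 109 and 97.6 CPM in EtOH 1 to 4 and at 86.0, 79.8, 97.5 and 104 CPM in EtOH+MBV 1 to 4. The 4 EtOH libraries lay above the 4 PF libraries, and the PF libraries had a coefficient of variation of 3.71%. Tmem97 rose by 0.39 ± 0.11 in EtOH against PF (edgeR, adjusted p = 0.0132), the smallest of the 8 called changes, and had -0.30 ± 0.11 in EtOH+MBV against EtOH (adjusted p = 0.146).

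Levels of different genes can be compared only per length, as mean CPM per kilobase of the union of annotated exons. On that scale PF liver held most of Ebp (98.0), Fdps (77.7), Insig2 (74.4) and Sc5d (72.3), and least of Ggps1 (1.93). In PF+MBV liver Hmgcs1 led (136), with Insig2 (129), Insig1 (121) and Sc5d (120.2) close behind. In EtOH+MBV liver Insig2 was at 292 and Insig1 at 23.2, where PF had 74.4 and 56.7.

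Genes around the pathway were counted from 3 further lists, outside the 27. Of all tested genes, EtOH against PF called 20.4% higher and 19.5% lower. With MBV it was 1.24% higher and 1.45% lower in ethanol-fed liver and 0.752% higher and 1.03% lower in pair-fed liver. An unadjusted p under 0.05 was found with MBV for 2723 of the 12901 tested genes in ethanol-fed and 2181 in pair-fed liver. Of 10 genes for SREBP processing and sterol-regulated protein degradation, 0 were called higher and 1, Erlin2, lower in EtOH against PF (edgeR, -0.30 log2), and 0 in either MBV comparison, with 0 and 3 at an unadjusted p under 0.05 in ethanol-fed and pair-fed liver. Of 18 genes for sterol storage, transport and efflux, 5 were higher and 4 lower in EtOH against PF. They include Gramd1c, a sterol carrier (1.02 ± 0.09 log2, adjusted p = 1.90e-06), Soat2, which esterifies cholesterol (1.89 ± 0.23, adjusted p = 1.55e-05), and Nr1h3, which encodes LXRα (-0.90 ± 0.10, adjusted p = 6.12e-06). In EtOH+MBV against EtOH 2 of the 18 were called higher and none lower, Nr1h3 by 0.46 ± 0.10 (edgeR, adjusted p = 0.0273) and Stard5, a sterol carrier, by 0.67 ± 0.13 (adjusted p = 0.0208). In PF+MBV against PF 1 was called higher and none lower, Lipa, the lysosomal lipase that frees cholesterol from its esters, by 0.67 ± 0.15 (edgeR, adjusted p = 0.0321). Of 8 tested genes for breakdown to bile acids and oxysterols, 1 was higher and 3 lower in EtOH against PF. Cyp7a1, whose enzyme sets the pace of bile acid formation, averaged 343 ± 159 CPM in PF against 13.1 ± 8.54 CPM in EtOH and fell by 4.71 ± 0.86 on the log2 scale (edgeR, adjusted p = 0.000551). Cyp7b1 fell by 1.82 ± 0.31 (adjusted p = 0.00027) and Cyp8b1 by 1.95 ± 0.41 (adjusted p = 0.00144). No gene of this breakdown list was called in either MBV comparison by edgeR, with 0 and 2 at an unadjusted p under 0.05 in ethanol-fed and pair-fed liver. The medians of the 3 lists in PF+MBV against PF were -0.05, 0.13 and -0.09, against 0.58 for the 27 sterol genes. Fatty acid genes under SREBP1, taken up further below, had a median of 0.475 in this comparison, with 10 of 11 fold changes positive. The isoprenoid branches, also below, had a median of 0.03.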

How the data were processed

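RNA from mouse liver was sequenced after selection of polyadenylated RNA, per the labels' protocols. Reads were trimmed with Trimmomatic and aligned with STAR to mm10, per the submitters' processing notes (versions and settings not given in the sources used here, nor the annotation). The deposited values are raw whole-number read counts per gene symbol, used as deposited by the authors. The unstranded count column of each file was used, because reads fell about evenly on both strands, and the 4 categories that are not genes (unmapped, multimapping, no feature, ambiguous) were left out of totals. Unmapped reads were 11.6% to 19.9% and reads without a feature 9.40% to 10.9% of a library.

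Genes were kept by edgeR's filterByExpr (minimum count 10), libraries were scaled by TMM (factors 0.863 to 1.269) and edgeR 4.0.16 in R 4.3.3 fitted a quasi-likelihood model with a mean for each group to the 16 libraries together. The 4 contrasts and their interaction were tested, with Benjamini-Hochberg adjustment over 12901 genes and 0.05 as the limit. The SE is the fold change over the root of its F statistic, and intervals are 95% (1.96 SE). Groups did not overlap where the lowest library of one exceeded the highest of the other. Alternatives were DESeq2 1.42.0, limma 3.58.1 voom, size factors by RLE, no filter, a replicate block, the 2 groups of a contrast alone, each library left out, and, chosen after seeing the data, EtOH 1 and EtOH+MBV 1 left out together. The script was tested on simulated data. Coordinates are RefSeq GRCm38.p6, and exon lengths GENCODE M21 (GRCm38), which matched 23376 of 24411 symbols. The 27 genes and the other lists were chosen with earlier results of these data known. By rule, each called gene of the 27 is named, library values are given for the 12 with the smallest p in EtOH against PF and for those called in another comparison, and up to 3 genes per other list with the smallest p in EtOH against PF are named. Stard5, Lipa, Pnpla3 and Fasn were chosen after their values were seen. A few genes of the pathway are not reported here.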

Additional observations from a re-analysis of the deposited data

Results flagged for a closer look

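Within groups of 4 libraries, 10 of 108 combinations of gene and group held a library set off from the other 3 by Dixon's criterion, and chance marks about 1 in 20 groups. PF 2 was set off for Hmgcs1 at 381 CPM, Mvd at 27.3 CPM and Insig1 at 278 CPM, in each case above the rest of PF. EtOH 2 was set off upward for Aacs at 51.2 CPM, Srebf2 at 91.8 CPM and Scap at 169 CPM. In PF+MBV, Ebp was low in PF+MBV 1 at 192 CPM, Stard4 was low in PF+MBV 4 at 79.6 CPM, and Tmem97 was high in PF+MBV 4 at 116 CPM. In EtOH+MBV, Tm7sf2 was high in EtOH+MBV 4 at 147 CPM.

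The change with MBV differed between the diets by the interaction test for 5 genes. It was -2.51 on the log2 scale for Hmgcs1, -2.29 for Insig1, -1.81 for Msmo1, -1.57 for Sqle and -0.995 for Hsd17b7.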

How the results depend on the processing

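Over 2187 fits of single genes under other settings, 1978 stayed on the same side of the limit, 105 lost and 104 gained a call. None of the called values reversed, and 58 fold changes past the limit in neither fit changed sign. For EtOH against PF, 2 genes of the 27 were called lower with only both groups in the fit (14.7% of all tested genes), against 4. For EtOH+MBV against EtOH, 347 of all tested genes were called, 905 by DESeq2, 180 without EtOH 1 and EtOH+MBV 1, and 0 with only both groups in the fit, where 1679 had an unadjusted p under 0.05. The 1 call among the 27 became 0 without EtOH 1 and EtOH+MBV 1, by limma voom and with only both groups. For PF+MBV against PF, 230 genes were called, 665 by DESeq2 and 1119 with only both groups, and 3 of the 27 became 8 and 15. For the interaction, 530 genes were called, 1113 by DESeq2 and 887 without EtOH 1 and EtOH+MBV 1, and 5 of the 27 became 12 and 10, and 8 with no filter, all negative (4.45%, 3.54% and 1.29% of all tested genes). The causes were not tested. Leaving out 1 library gave 4268 to 5069 calls over all tested genes in EtOH against PF, 8 to 1169 in EtOH+MBV against EtOH, 45 to 689 in PF+MBV against PF, 3412 to 5334 in EtOH+MBV against PF+MBV and 168 to 1088 for the interaction. Among the 27 it gave 3 to 10 higher and 2 to 8 lower, 0 to 1 higher and 0 to 3 lower, 0 to 11 higher and 0 lower, 0 to 1 higher and 13 to 17 lower, and 0 to 1 positive and 1 to 14 negative, in that order.

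Replicate numbers showed no clear pairing of the libraries: 3 of 24 same-numbered pairs correlated above 0.1, over a range of -0.12 to 0.17, and the own number correlated best in 4. The labels do not say whether a number marks a shared batch or day, and with 4 libraries per group weak correlations cannot exclude it. With the replicate number as a block, 205 genes were called in EtOH+MBV against EtOH, and 6 of the 27 were higher in PF+MBV against PF (0.806% of all tested genes). Depth limits Ggps1, Mvd and Mvk most, the lowest of the 27 in PF.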

Other observations

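The fatty acid genes under SREBP1, the sister factor of SREBP2, were counted as a list of 11. In EtOH against PF 8 were lower and 1, Pnpla3, higher (edgeR), where 19.5% of all tested genes were called lower and 20.4% higher. Scd1, which makes monounsaturated fatty acids, was at 16513 ± 3696 CPM in PF, 2693 ± 1917 in EtOH, 4748 ± 1086 in EtOH+MBV and 22150.2 ± 2079 in PF+MBV. It fell by 2.62 ± 0.49 in EtOH against PF (edgeR, adjusted p = 0.000672), and Elovl6, a fatty acid elongase, fell by 1.70 ± 0.31 (adjusted p = 0.000561). In PF+MBV against PF 2 of 11 were higher (0.752% of all tested genes), Fasn, the fatty acid synthase, by 1.40 ± 0.28 (edgeR, adjusted p = 0.0184) and Pnpla3 by 2.39 ± 0.53 (adjusted p = 0.033). In EtOH+MBV against PF+MBV 10 of 11 were lower, against 16 of the 27 sterol genes and 16.7% of all tested genes. In EtOH+MBV against EtOH none was called, and 1 had an unadjusted p under 0.05, against 2723 of the 12901 tested genes. Of 11 genes of the isoprenoid branches, which use the same precursors for protein prenylation, dolichol and ubiquinone, 1 was higher and 2 lower in EtOH against PF. None of them was called in either MBV comparison, with 1 at an unadjusted p under 0.05 in each. Of the 12901 tested genes, 2723 had such a p with MBV in ethanol-fed and 2181 in pair-fed liver.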
